A study of Mus musculus with 16 samples.

Results

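The chains described here are the collagens other than type IV, taken as every gene of the deposited count table whose symbol has the form of a collagen alpha chain, with the 6 type IV genes left out. The rule found 37 of the 17721 genes. By structural role they comprised 11 fibril-forming chains, 8 fibril-associated chains (FACITs, which sit on the surface of fibrils), 6 type VI chains of beaded filaments, 4 transmembrane chains, 2 multiplexins of the basement membrane zone, 3 chains of types VIII and X that form networks, the type VII chain of anchoring fibrils and 2 others (types XXVI and XXVIII). The study dissected single fragments of mammary gland from C57BL/6 mice 5 weeks old, which its supplement gives as *Krt14-Cre/Rosa26-mTmG* animals, with Cre driven by the promoter of a basal keratin (the general methods also name wild-type mice). The fragments were 4 from the nipple, 6 from ducts and 6 terminal end buds (TEBs, the growing tips of ducts at puberty), and no fragment was treated. Single cells were sorted into plates and the 3' ends of their transcripts were counted by unique molecular identifiers (UMIs), so that 1 count stands for 1 captured molecule whatever the length of the transcript. The comparison asks how cells differ with their place along the gland.

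A collagen chain is defined by a Gly-X-Y repeat, and chains wind around each other through this repeat. Fibroblasts make most interstitial collagen: types I, III and V assemble into the fibrils that give connective tissue its strength, and type VI forms a finer network around cells. Epithelial cells are known for chains of the epithelial surface and its base, among them types VII and XVII, which anchor epithelia to the underlying stroma.

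The repeat is what the chains share in sequence, and the length of its longest unbroken run sets the fibril-forming chains apart from the other classes, which overlap among themselves, so 3 triplets of it are shown for the chains whose levels the results turn on. All 37 chains had a coding transcript in GENCODE M21 (GRCm38). Each line gives 27 bases from the longest unbroken run of triplets, 5′ to 3′ on the coding strand. The glycine codon that opens each triplet is in capitals, and in the *Col3a1* line the lower-case codons gga and ggt also code for glycine.
Col1a1: GGCcccatgGGTccttctGGTcctcgt
Col3a1: GGAgtgggaGGAatgggtGGCtatccg
Col6a1: GGAcctccaGGGccccgaGGCgaccct
Col7a1: GGAcctcccGGGccacgaGGTgccaaa
Col16a1: GGAgaacctGGCtgttctGGGagccct
Col17a1: GGAgagaaaGGAgacagaGGGattgct
Col9a1: GGTcgctctGGAtatccaGGCctacca
The stretch of *Col3a1* lies within 1 exon at chr1:45323762-45323788 (plus strand), that of *Col6a1* at chr10:76720970-76720996 (minus strand), that of *Col7a1* at chr9:108978632-108978658 (plus strand), that of *Col16a1* at chr4:130079646-130079672 (plus strand) and that of *Col9a1* at chr1:24209080-24209106 (plus strand). In fibril-forming chains the longest run held 216 to 344 triplets (median 338 over 11 chains), and in *Col1a1* 338. FACITs, whose repeat is interrupted, had 32 to 113 triplets, type VI chains 37 to 87, type VII 75, type XVII 56 and the multiplexins 30. Some chains are neighbours in the genome: *Col3a1* and *Col5a2* lie 24.6 kb apart on chromosome 1, and *Col6a1* and *Col6a2* 85.2 kb apart on chromosome 10. *Col18a1* and *Col9a3* each overlap a gene on the other strand (*Slc19a1* and *Tcfl5*), and since the sources used here do not state whether counting used strand, their counts are less certain than the others.

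Of 1419 deposited cells 1317 passed the study's filters, 67 to 88 cells and 1829137 to 3923111 UMIs per fragment. The fragments reuse the same 95 well numbers, and any pair of them shares 73 to 91, as plates do. The labels do not name the mouse behind a fragment, so p-values measure the spread between fragments, which may be partly technical. Cells were clustered without any collagen among the genes used, and classes were named from markers that hold no collagen. The fibroblast-like class held 252 cells in 4 clusters with 6 to 8 of its 8 markers above their mean across clusters, and *Cidec*, the 1 gene of a list of 4 adipocyte markers that the table holds, had no UMI in it. Luminal and basal markers were present in it: the summed level of 8 ER+ luminal markers was 333 to 433 counts per 1000000 UMIs (CPM) in nipple, 651 to 2045 in duct and 404 to 609 in TEB fragments, and that of 8 basal markers 172 to 213, 193 to 491 and 37.2 to 1701 CPM. TEB fragment 42, with 6 fibroblast-like cells, had the highest smooth muscle (1918 CPM) and cycling (420 CPM) marker sums, and the part of these in the results was not tested beyond leaving that fragment out.

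In fibroblast-like cells the collagens other than type IV were led by types I and III. Summed over fragments with at least 5 such cells (4 nipple, 4 duct and 5 TEB fragments, 89639 to 1513801 UMIs each), the 37 chains took 3.73% ± 0.203 of all UMIs in the 4 nipple fragments, 3.28% ± 0.434 in the 4 duct fragments and 2.35% ± 0.335 in the 5 TEB fragments (± SD). Types I and III made up 67.7% ± 2.92, 72.2% ± 8.08 and 64.3% ± 6.06 of the chains' UMIs. Of the 37 chains, 20 had enough counts to be tested and 17 did not. Without a UMI in fibroblast-like cells were *Col11a2*, *Col19a1* and *Col24a1*, and over all cells *Col24a1* had none. Among the 17 were the 3 type IX chains, which reached at most 33.2 CPM in a fragment (*Col9a3* in nipple fragment 22), and the 3 chains of types VIII and X, at most 111 CPM (*Col8a1* in duct fragment 32). In bulk sums of a class, fewer cells making a chain and less RNA per cell cannot be told apart.

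Between nipple and TEB fibroblast-like cells, 6 of the 20 tested chains differed and all 6 were higher in nipple: the type I chains *Col1a1* and *Col1a2*, the type VI chains *Col6a1* and *Col6a2*, the FACIT *Col16a1* and the anchoring fibril chain *Col7a1*. Over all 8489 genes tested, 1.54% differed in this pair, 1.11% with the higher level in nipple and 0.436% with the higher level in TEB. The median nipple-minus-TEB log2 difference was 0.67 over the 20 chains and −0.02 over all genes tested. In 10 of the 37 chains the nipple and TEB fragments did not overlap, each with nipple higher, where 4.28% of all 17721 genes did not overlap (3.09% with nipple higher and 1.19% with TEB higher). Of these, 9 were among the 20 tested chains, where 7.53% of the genes tested did not overlap (5.32% with nipple higher and 2.2% with TEB higher). Between duct and TEB, 2 chains differed, *Col1a1* and *Col1a2*, both higher in duct, where 0.271% of all genes differed (0.212% with duct above TEB and 0.0589% with TEB above duct). Between nipple and duct 0 chains differed by edgeR (8 at an unadjusted p under 0.05, and 2 by DESeq2, *Col6a3* and *Col26a1*), where 0.2% of all genes did (0.13% higher in nipple and 0.0707% higher in duct). The 3 pairs share their fragments. Across all 3 locations 6 chains differed, where 1.7% of genes did.

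**Figure D1:**
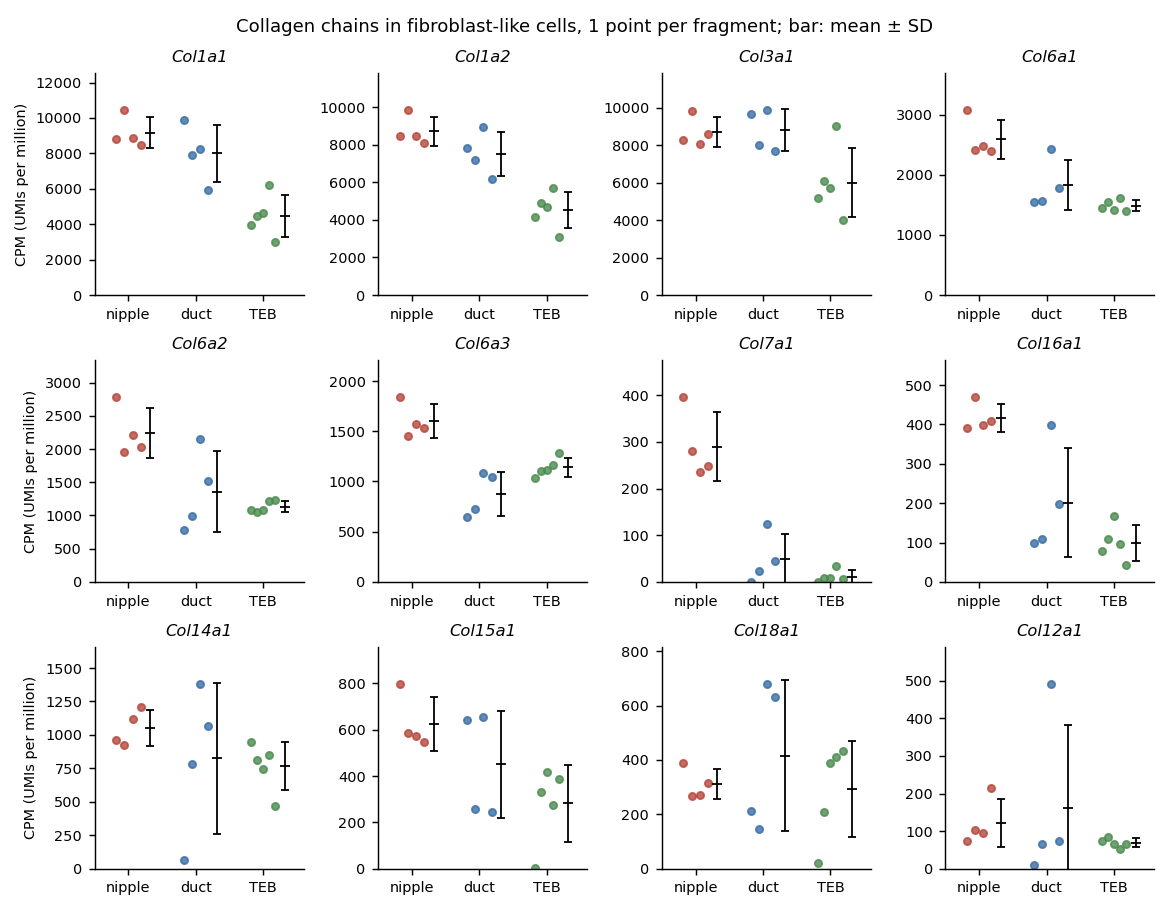
Level of 12 collagen chains in fibroblast-like cells, in CPM on a linear axis, by location. Each point is 1 fragment (4 nipple, 4 duct, 5 TEB) and the bar is the mean with its SD, drawn no lower than 0. *Col1a1* and *Col1a2* are lower in all 5 TEB fragments than in all 4 nipple fragments, and *Col7a1* is at 235 CPM or more in nipple and at 34.8 CPM or less in TEB.

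The fibril-forming chains held the highest levels. *Col1a1*, 1 of the 2 type I chains, had 8839, 10440, 8865 and 8471 CPM in the nipple fragments, 9912, 7904, 8238 and 5943 in duct and 3982, 4492, 4652, 6196 and 2987 in TEB. All nipple fragments lay above all TEB fragments, and the lowest duct fragment lay below the highest TEB fragment. Its log2 difference was 1.04 (SE 0.175, adjusted p = 0.0013, edgeR) for nipple minus TEB and 0.84 (SE 0.175, adjusted p = 0.0384, edgeR) for duct minus TEB. Its partner *Col1a2*, which joins it in the type I molecule, averaged 8706 ± 776 CPM (SD) over the 4 nipple fragments, 7528 ± 1167 over the 4 duct fragments and 4509 ± 960 over the 5 TEB fragments, and here neither the nipple nor the duct fragments overlapped with TEB. The difference was 0.95 (SE 0.16, adjusted p = 0.0013, edgeR) for nipple minus TEB and 0.74 (SE 0.16, adjusted p = 0.0417, edgeR) for duct minus TEB. The duct and TEB calls of both chains were the least stable: 0 remained when duct fragment 32 or 61, any nipple fragment or TEB fragment 31, 32 or 33 was left out.

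The type III chain *Col3a1*, which mixes with type I in the fibrils of soft tissues, had 8290, 9850, 8067 and 8590 CPM in nipple, 9690, 7994, 9872 and 7671 in duct and 5176, 6087, 5728, 9030 and 4022 in TEB. TEB fragment 34 lay within the range of the other locations and the remaining TEB fragments below it. The nipple-minus-TEB log2 difference was 0.53 (SE 0.173, adjusted p = 0.152, edgeR), and without TEB fragment 34 it was 0.72 and past the threshold. Per molecule of *Col1a1*, the fragments held 0.951 ± 0.0443 molecules of *Col3a1* (SD) over the 4 nipple fragments, 1.12 ± 0.15 over the 4 duct fragments and 1.34 ± 0.0828 over the 5 TEB fragments. Nipple and TEB fragments did not overlap in this ratio (0.91 to 1.01 against 1.23 to 1.46). The exact two-sided permutation test gave p = 0.0159, the smallest that 4 against 5 fragments can give, and 0.0794 after adjustment over 15 tests of 5 ratios between chains. By contrast, *Col1a1* per *Col1a2* was 1.05 ± 0.00705, 1.06 ± 0.158 and 0.983 ± 0.0631 in nipple, duct and TEB (SD, n = 4, 4 and 5), with adjusted p = 0.143 for nipple against TEB by the same exact permutation test.

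Type V chains, which help to set the diameter of type I fibrils, showed no call in any pair. *Col5a2* had 1687 ± 187 CPM (SD) over the 4 nipple fragments, 1869 ± 969 over the 4 duct fragments and 1308 ± 364 over the 5 TEB fragments. Duct fragments spread most for it, from 1067 to 3043 CPM. *Col5a1* averaged 852, 660 and 701 CPM and *Col5a3* 665, 622 and 612 CPM in nipple, duct and TEB, and the ranges of the locations overlapped for both. The other fibril-forming chain that was tested, *Col27a1*, stayed at 24.6 to 26.2 CPM on average in each location. Of the cartilage chains, *Col2a1* was counted in 3 of 5 TEB fragments (14 to 27.1 CPM) and in no nipple or duct fragment, and *Col11a1* reached 34.8 CPM in TEB fragment 34.

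Of the 3 major type VI chains, which form 1 molecule, *Col6a1* and *Col6a2* were called in nipple against TEB and *Col6a3* was not. *Col6a1* had 3076, 2416, 2483 and 2393 CPM in nipple, 1556, 1562, 2434 and 1782 in duct and 1441, 1544, 1423, 1620 and 1395 in TEB. Nipple stood clear of TEB, whereas 1 duct fragment (61) reached into the nipple range. The nipple-minus-TEB log2 difference was 0.80 (SE 0.175, adjusted p = 0.012, edgeR), and it was no longer past the threshold without nipple fragment 21 (0.71). *Col6a2* had 2246 ± 375 CPM (SD) over the 4 nipple fragments, 1359 ± 609 over the 4 duct fragments and 1132 ± 80.8 over the 5 TEB fragments, a difference of 0.99 (SE 0.226, adjusted p = 0.0177, edgeR) for nipple minus TEB. This call was lost without nipple fragment 21 or 23 or TEB fragment 31, 32 or 33, with log2 differences from 0.87 to 1.0.

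*Col6a3* was instead lowest in duct, with 1841, 1452, 1569 and 1534 CPM in nipple, 645, 724, 1081 and 1047 in duct and 1035, 1101, 1117, 1164 and 1281 in TEB. Nipple overlapped with neither other location. Its nipple-minus-duct log2 difference was 0.86 (SE 0.207, adjusted p = 0.0815, edgeR) and that of nipple minus TEB 0.49 (SE 0.193, adjusted p = 0.305, edgeR). DESeq2, no filter on low counts, fragments of at least 10 cells, and leaving out duct fragment 61 or TEB fragment 42 each put the nipple and duct difference past the threshold, at 0.62 to 1.0. Molecules of *Col6a3* per molecule of *Col6a1* were 0.618 ± 0.0215 (SD) over the 4 nipple fragments, 0.477 ± 0.0762 over the 4 duct fragments and 0.771 ± 0.0877 over the 5 TEB fragments. The locations did not overlap in this ratio, and each of the 3 pairs had adjusted p = 0.0794 (exact permutation test, 15 tests). *Col6a4*, *Col6a5* and *Col6a6*, the minor type VI chains, were at 36.5 CPM or less in each fragment.

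The chain with the largest fitted difference between nipple and TEB was *Col7a1*, the chain of the anchoring fibrils beneath epithelia. Nipple fragments had 396, 280, 235 and 248 CPM, duct fragments 0, 24.1, 124 and 45.4, and TEB fragments 0, 7.74, 8.0, 34.8 and 6.71. All 4 nipple fragments lay above all others, while duct and TEB overlapped. The nipple-minus-TEB log2 difference was 4.87 (SE 0.809, adjusted p = 0.00305, edgeR), that of nipple minus duct 2.41 (SE 0.782, adjusted p = 0.253, edgeR) and that of duct minus TEB 2.46 (SE 0.816, adjusted p = 0.249, edgeR). Its summed UMIs were 1265 in nipple, 64 in duct and 31 in TEB. Basal-like cells also held this chain, at levels given further on, and in nipple their mean of 94.5 CPM was below the 290 CPM of fibroblast-like cells, with each class scaled on its own. Among the basal markers counted in the fibroblast-like class, the keratin *Krt14* was also higher in nipple than in TEB. It was at 61.5 CPM in nipple, 47.5 in duct and 3.25 in TEB (nipple minus TEB 4.08 on the log2 scale, adjusted p = 0.00169, edgeR). Unlike *Col7a1*, it was close between nipple and duct (log2 difference 0.45, adjusted p = 0.893, edgeR). *Krt17* was at 51.5, 60.5 and 9.77 CPM and *Krt5* at 12.4, 17.2 and 1.97 CPM in the same order, short of the threshold for nipple against TEB (adjusted p = 0.076 and 0.398, edgeR). *Acta2*, a basal marker that smooth muscle also expresses, ran the other way, at 54, 190 and 450 CPM (adjusted p = 0.335 for nipple against TEB, edgeR). *Mylk*, another basal marker, was also lowest in nipple, at 5.62, 35.5 and 23.6 CPM (adjusted p = 0.6 for nipple against TEB, edgeR). The part of basal RNA in the *Col7a1* difference was not tested.

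FACIT chains, which bridge fibrils and other matrix, differed among themselves. *Col16a1* had 392, 470, 398 and 408 CPM in nipple, 100, 108, 399 and 199 in duct and 78.3, 110, 167, 95.8 and 42.5 in TEB. Nipple stood clear of TEB, and duct fragment 61 lay at the nipple level. The nipple-minus-TEB log2 difference was 2.06 (SE 0.378, adjusted p = 0.00253, edgeR). *Col14a1*, a FACIT of dense fibrils, was the most abundant of the class at 1053 ± 133 CPM (SD) over the 4 nipple fragments, 824 ± 561 over the 4 duct fragments and 767 ± 181 over the 5 TEB fragments, with an adjusted p of 0.9 for nipple against TEB (edgeR). Duct fragment 32, with 5 cells, had only 66.7 CPM. *Col12a1*, also a FACIT, ranged from 52.3 to 84.1 CPM in TEB and from 74.8 to 215 in nipple, and its duct mean of 161 CPM rested on duct fragment 61 (491 CPM against 73.8 in the next).

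The multiplexins *Col15a1* and *Col18a1*, the latter the source of endostatin, are found near basement membranes. *Col15a1* had 548 to 798 CPM in nipple, 244 to 657 in duct and 276 to 416 in 4 of the TEB fragments, but 1.96 CPM in TEB fragment 31. The nipple range lay above the TEB range, and the log2 difference of 1.15 had a wide error (SE 0.824, adjusted p = 0.775, edgeR). *Col18a1* averaged 311 ± 54.8, 416 ± 277 and 293 ± 177 CPM in nipple, duct and TEB (SD, n = 4, 4 and 5), with 20.6 CPM in the same TEB fragment 31. Among the transmembrane chains, *Col13a1* had 41.2 to 86.8 CPM in nipple and 0 to 23.2 in TEB, without overlap but short of the threshold (log2 difference 2.25, SE 0.858, adjusted p = 0.272, edgeR). *Col28a1*, a chain of the type VI superfamily, had a duct mean of 95.3 CPM that came mostly from duct fragment 32 (311 CPM).

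**Figure D2:**
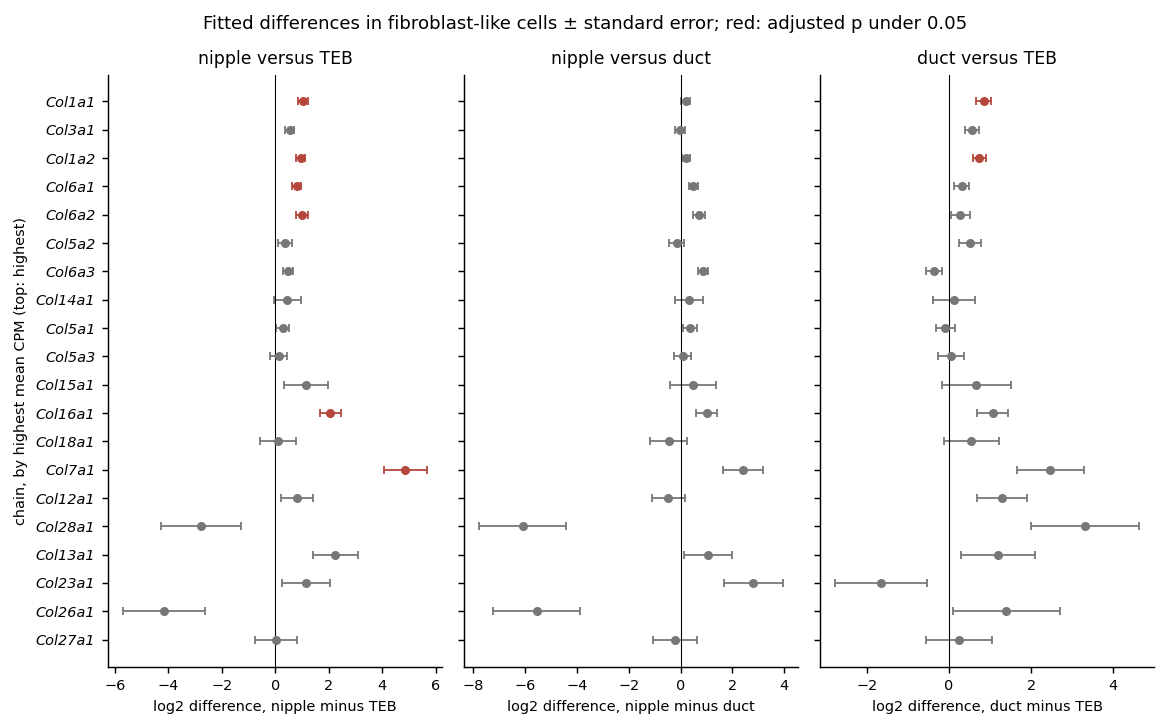
Fitted log2 difference between locations (x axis, with its standard error as the bar) of the 20 collagen chains tested in fibroblast-like cells, 1 panel for each pair. Red points passed an adjusted p of 0.05 and grey points did not: 6 passed in nipple against TEB, 0 in nipple against duct and 2 in duct against TEB.

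The fibroblast-like class was not made of the same clusters in each location. Cluster 4, led by *Cthrc1* and *Penk*, held 86 nipple and 1 duct cells. Cluster 7, led by *Myoc* and *Scg3*, held 29 nipple, 28 duct and 16 TEB cells. Cluster 9, led by *Pi16* and *Akr1c18*, held 1 nipple, 3 duct and 64 TEB cells, and cluster 10, led by *F2r* and *Mmd*, 6 duct and 18 TEB cells. The summed level of 7 genes of the Pi16 and Dpp4 type was 404 to 974 CPM in nipple, 478 to 3666 in duct and 275 to 7352 in TEB fragments, and that of the 8 fibroblast markers 16210 to 18110, 12710 to 26000 and 6388 to 15290 CPM. Location and cluster thus move together, and the chains were described by cluster as well, with no test.

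*Col1a1* was at 9053 CPM in cluster 4, 7183 in cluster 7, 4270 in cluster 9 and 4440 in cluster 10. The type VI chains *Col6a1* and *Col6a2* were also highest in cluster 4 (2881 and 2554 CPM) and lower in cluster 7 (1517 and 1160), 9 (1365 and 985) and 10 (1949 and 1496). *Col7a1* was at 362 CPM in cluster 4, 9.99 in cluster 7 and 115 in cluster 10, and had no UMI in cluster 9. The multiplexins were lowest in cluster 9, at 2.86 CPM for *Col15a1* and 23.3 for *Col18a1*, and highest in cluster 10, at 774 and 948 CPM. *Col5a2* was highest in cluster 10 as well (2545 CPM, against 897 in cluster 9), whereas *Col14a1* differed less, from 679 to 1081 CPM.

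These differences were seen inside single fragments too. In the nipple, cluster 4 lay above cluster 7 in 4 of 4 fragments for *Col1a1* (mean 9253 against 7526 CPM), *Col1a2*, *Col6a1* (2936 against 1233), *Col6a2* (2585 against 945), *Col7a1* (384 against 5.41) and *Col15a1*, and below it in 4 of 4 for *Col5a2*, *Col5a3* and *Col18a1*. In the 3 TEB fragments with at least 3 cells of both, cluster 9 lay below cluster 7 in 3 of 3 for *Col1a1* (4665 against 7727 CPM), *Col1a2*, *Col3a1* (6609 against 9719), *Col6a1*, *Col6a2*, *Col15a1* (1.85 against 927) and *Col18a1*, and above it in 3 of 3 for *Col14a1* (1039 against 168), *Col5a1* and *Col6a3* (1183 against 383).

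**Figure D3:**
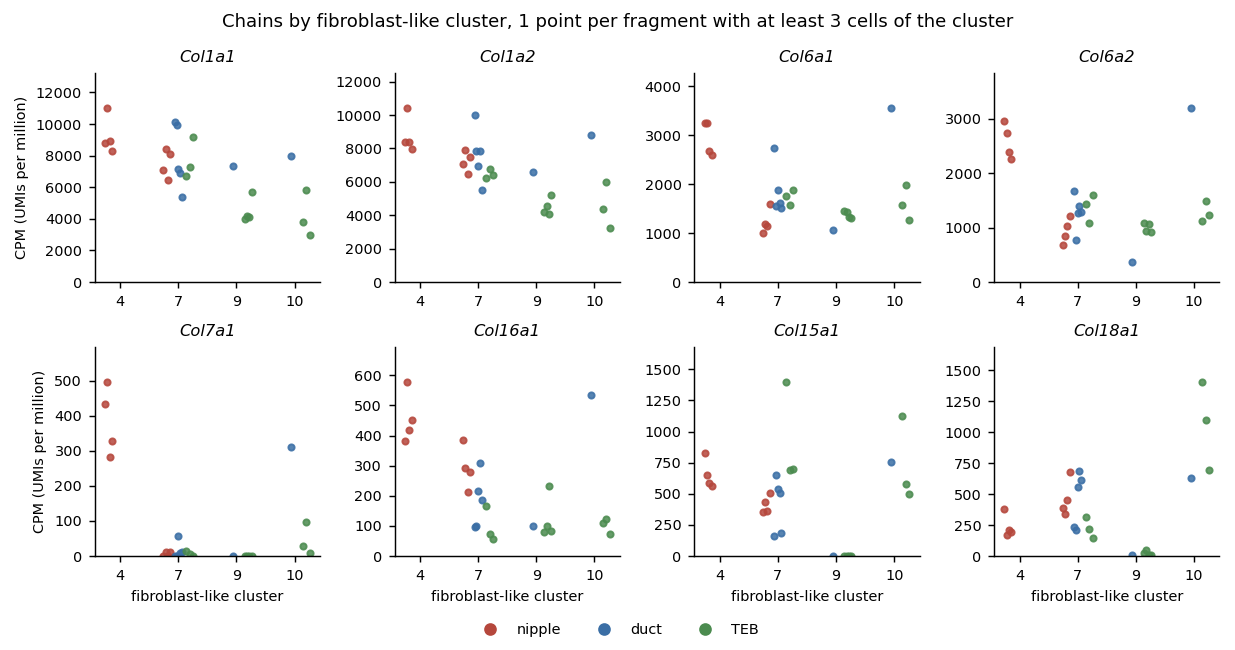
Level of 8 collagen chains (CPM, linear axis) in the 4 fibroblast-like clusters. Each point is 1 fragment with at least 3 cells of the cluster, and its mark gives the location. *Col7a1* is near 0 outside clusters 4 and 10, and *Col15a1* is near 0 in cluster 9.

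Cluster 7 is the only fibroblast-like cluster with cells of many fragments in every location, and it was tested alone, an alternative chosen after the clusters were seen (4 nipple, 5 duct and 3 TEB fragments with at least 3 of its cells). The nipple-minus-TEB log2 difference there was −0.12 for *Col1a1*, 0.07 for *Col1a2*, −0.34 for *Col3a1*, −0.57 for *Col6a1* and −0.61 for *Col6a2*, none past the threshold (adjusted p = 0.923, 0.973, 0.571, 0.378 and 0.397, edgeR). For *Col16a1* it was 1.38 (adjusted p = 0.326, edgeR), and *Col7a1* had too few counts to be tested. Past the threshold in nipple against TEB were *Col6a3*, higher in nipple (1.69, SE 0.36, adjusted p = 0.0188, edgeR), and *Col2a1*, higher in TEB and without a UMI in nipple (adjusted p = 0.0262, edgeR). The share of all genes past the threshold in this cluster alone is not given here, so these calls are not read as a result about collagens. For *Col1a1* and *Col6a1*, the whole classes differed by 1.04 and 0.80. The shared cluster, with 3 to 7 cells in each of the 3 TEB fragments, differed by −0.12 (SE 0.222) and −0.57 (SE 0.28).

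Genes that act on collagen in the same fibroblast-like sums were counted from lists. Of 18 tested genes for hydroxylation, folding and glycosylation of chains, 0 differed across locations by edgeR (3 at an unadjusted p under 0.05, 1 by DESeq2). *Crtap*, part of the prolyl 3-hydroxylation complex, had the smallest p there, with 340 ± 32.9 CPM (SD) over the 4 nipple fragments, 362 ± 167 over the 4 duct fragments and 175 ± 26.8 over the 5 TEB fragments (adjusted p across locations 0.102, edgeR). *Sparc*, a collagen-binding glycoprotein, stood at 9446, 9155 and 6546 CPM, *Fkbp10*, a chaperone, at 209, 325 and 144 CPM and *Ppib*, a prolyl isomerase, at 128, 84.9 and 53.8 CPM in the same order. The median nipple-minus-TEB log2 difference over this list was 0.49.

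Of 10 tested genes for procollagen processing and crosslinking, 1 differed across locations: *Adamts2*, the protease that removes the amino-terminal propeptide of fibrillar procollagens. It had 532 ± 64.3 CPM (SD) over the 4 nipple fragments, 240 ± 52.6 over the 4 duct fragments and 204 ± 83.7 over the 5 TEB fragments, a nipple-minus-TEB log2 difference of 1.37 (SE 0.313, adjusted p = 0.0177, edgeR). Leaving out any nipple fragment or TEB fragment 31, 32 or 34 took the count of this list across locations to 0. Neither enhancer of carboxy-terminal cleavage passed the threshold, *Pcolce* at 1609, 1392 and 1023 CPM and *Pcolce2* at 129, 268 and 443 CPM in nipple, duct and TEB, and the crosslinking enzyme *Loxl3* was at 20.9, 61.9 and 56.7 CPM.

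Of 14 tested fibril-associated proteoglycans and glycoproteins, *Bgn* alone differed across locations. This small leucine-rich proteoglycan, which binds type I and VI collagen, had 1195 ± 127 CPM (SD) over the 4 nipple fragments, 870 ± 295 over the 4 duct fragments and 150 ± 95.6 over the 5 TEB fragments, with log2 differences of 3.01 (SE 0.368, adjusted p = 0.000158, edgeR) for nipple minus TEB and 2.56 (SE 0.365, adjusted p = 0.0046, edgeR) for duct minus TEB. *Lum* was at 3545, 3532 and 2134 CPM, *Fn1* (fibronectin) at 1447, 2389 and 2348 CPM and *Thbs1* at 515, 1120 and 203 CPM. Of 6 tested collagen receptors 0 differed across locations by edgeR (2 at an unadjusted p under 0.05, 0 by DESeq2), where *Itga11* had 11.9, 14.2 and 84.2 CPM, *Mrc2* 168, 58.5 and 131 CPM, *Ddr2* 264, 185 and 331 CPM and *Ddr1* 26.7, 9.81 and 7.2 CPM in nipple, duct and TEB.

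Epithelial cells held UMIs of most of the same chains, and since RNA of 1 well can be counted in another, each chain was compared with the number of UMIs such transfer would give. The share of a class's UMIs that came from other wells was estimated in each fragment from fibroblast and myeloid markers, none of them a collagen, and multiplied by the chain's rate in all cells of the fragment. In basal-like cells this share was 6.73% in nipple, 20.6% in duct and 27.6% in TEB fragments (SD 2.08, 8.56 and 17.8, n = 4, 6 and 6). Without *Serpinf1* and *Fbln1* among the markers it was 7.01%, 12.9% and 9.46%, so both values are given where they differ in outcome. This alternative was chosen after the data were seen, because both genes were taken to be made by basal-like cells. A marker made by the class itself raises the estimated share, which in TEB fragment 42 was 53.1% with them and 20.5% without. In ER+ luminal-like cells it was 7.16%, 10.3% and 5.84%, and in ER- luminal-like cells 5.09%, 7.18% and 3.25%. The pool includes the class itself, so that a chain made by the class raises its own expectation.

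In basal-like cells 13 of 27 tested chains had more UMIs than expected and 5 had fewer. Of all genes tested 73.7% had more, so that the chains' share was below that of all genes. The share of all genes with fewer is not given here for any class, so chains with fewer are not set against it. Those with more were *Col17a1*, *Col7a1*, *Col18a1*, *Col16a1*, *Col14a1*, *Col12a1*, *Col9a1*, *Col9a2*, *Col9a3*, *Col2a1*, *Col11a1*, *Col25a1* and *Col5a2*. Those with fewer were *Col1a1*, *Col1a2*, *Col3a1*, *Col5a3* and *Col6a3*. Without *Serpinf1* and *Fbln1*, *Col6a1*, *Col6a2* and *Col27a1* joined the first group (16 chains) and only *Col1a1* and *Col6a3* were left in the second. The shares of all genes without those markers are not given here.

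The hemidesmosome chain *Col17a1* had 2624 UMIs over the 16 fragments where 126 were expected, a ratio of 20.8, and was above expectation in 16 of 16 fragments (adjusted p = 9.4e-05, exact sign-flip permutation test over fragments). *Col7a1*, whose product anchors the same epithelial base to the stroma, had 1284 UMIs against 89.5 and was above in 16 of 16 fragments. The multiplexin *Col18a1* had 3597 UMIs against 359, and the FACITs *Col16a1* and *Col14a1* had 2240 against 197 and 3319 against 373, each in 16 of 16 fragments. The type IX chains *Col9a2* (1541 against 115) and *Col9a3* (1844 against 155) were above in all fragments and *Col9a1* (519 against 79.9) in 12 of 16. Type IX collagen is best known from cartilage, as are *Col2a1* (129 UMIs against 10.8, above in 10 of 16 fragments) and *Col11a1* (916 against 93.8, above in 13 of 16). *Col12a1* had 604 UMIs against 63.8, above in 14 of 16 fragments. *Col25a1* had 23 against 2.86, above in 8 of 16, and 20 of its UMIs were in TEB. *Col5a2* had 785 against 504, above in 12 of 16, with the smallest ratio of the 13 and an adjusted p of 0.0213 (exact sign-flip permutation test). It had 217 against 103 in nipple and 391 against 96.3 in duct, but 177 against 305 in TEB (109 without *Serpinf1* and *Fbln1*). Its call was lost in 3 of 23 alternatives.

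The type I and III chains stood on the other side, with 892 UMIs of *Col1a1* where 1519 were expected, 1179 against 1539 of *Col1a2* and 1239 against 1812 of *Col3a1*. Without *Serpinf1* and *Fbln1* these expectations were 991, 983 and 1096, and *Col1a2* and *Col3a1* no longer differed from them. *Col6a1* had 732 UMIs in nipple where 169 were expected without those markers, 332 against 65.9 in duct and 78 against 93.7 in TEB. Of 15 other fibroblast genes counted the same way in basal-like cells, 12 had fewer UMIs than expected. The other calls were 2 with more, *Gas1* (ratio 8.47) and *Fbn1* (1.77). The median ratio of observed to expected was 0.417 (0.813 without *Serpinf1* and *Fbln1*, where 6 had fewer and 2 had more). In ER+ luminal-like cells 8 of 15 such genes had fewer and 2 had more (median ratio 0.771). In ER- luminal-like cells 3 of 12 tested had fewer and 1 had more (median ratio 0.92).

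**Figure D4:**
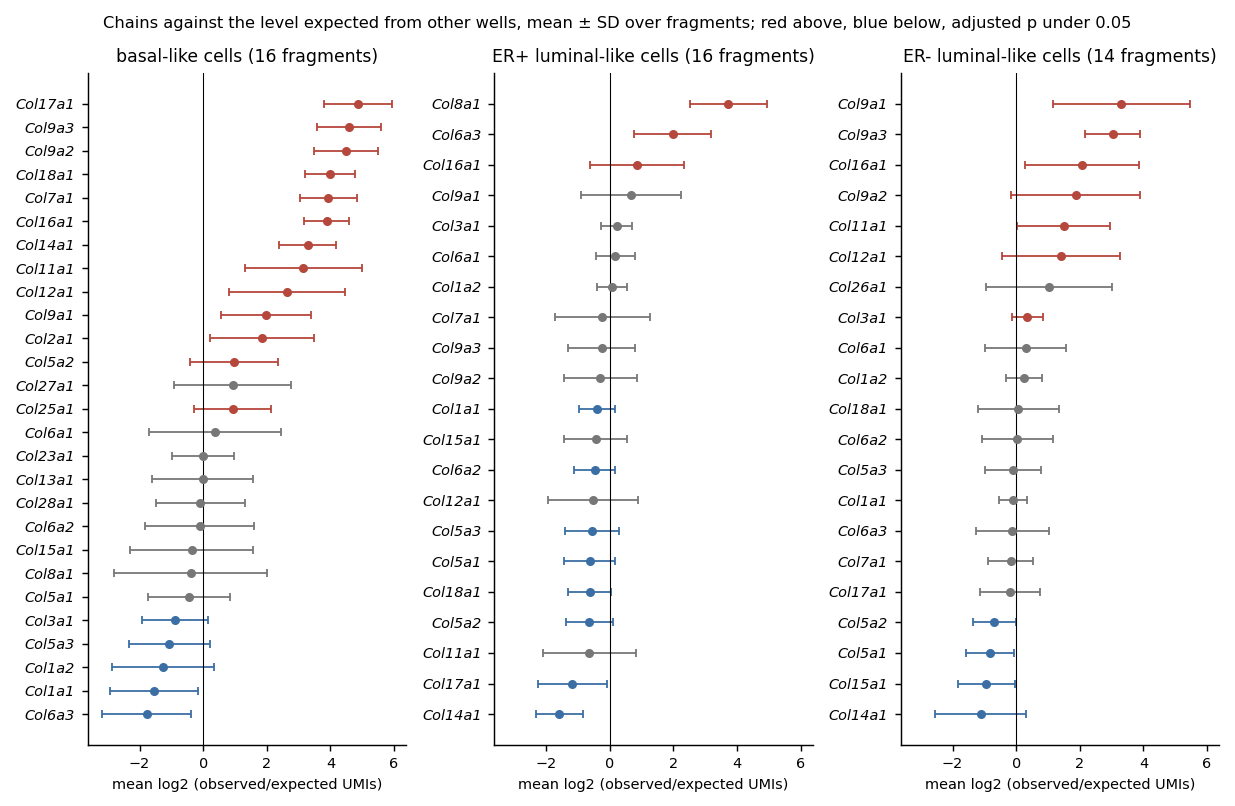
Mean over fragments of the log2 ratio of observed to expected UMIs (x axis, bar = SD) for collagen chains with enough UMIs, in basal-like (16 fragments), ER+ luminal-like (16) and ER- luminal-like cells (14). The line at 0 is the level expected from RNA of other wells. *Col17a1* is farthest to the right in basal-like cells, *Col8a1* in ER+ and *Col9a1* in ER- luminal-like cells, and the type I and III chains lie near or left of the line.

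In ER+ luminal-like cells 3 of 21 tested chains had more UMIs than expected and 8 had fewer, where 89.4% of all genes had more. *Col8a1*, a short-chain collagen of networks around vessels and in the eye, had 537 UMIs against 26.7, above in 15 of 16 fragments (adjusted p = 0.000103, exact sign-flip permutation test). *Col6a3* had 1354 UMIs against 288, above in 15 of 16 fragments, whereas its partners *Col6a1* (445 against 408) and *Col6a2* (219 against 298) were not above. *Col16a1* had 253 against 130, and this call was lost without *Serpinf1* and *Fbln1* (adjusted p = 0.0644, exact sign-flip permutation test) or without any 1 of duct fragments 32, 52, 61 and 62, nipple fragment 22 and TEB fragments 31, 32, 33, 34 and 42. *Col1a1* (1058 against 1269) was below expectation, and *Col1a2* (1495 against 1267) and *Col3a1* (1734 against 1432) were not past the threshold.

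In ER- luminal-like cells 7 of 21 chains had more UMIs than expected and 4 had fewer, where 88.9% of all genes had more. All 3 type IX chains were among them: *Col9a1* had 220 UMIs against 4.42, above in 11 of 14 fragments, *Col9a3* 177 against 12.4, above in 14 of 14 fragments, and *Col9a2* 123 against 12.1, above in 10 of 14. *Col16a1* had 258 against 35.3, *Col12a1* 89 against 13.4 and *Col11a1* 63 against 5.66. The seventh was *Col3a1* with 629 against 450, and it lost the call without *Serpinf1* and *Fbln1* (adjusted p = 0.0531, exact sign-flip permutation test). *Col26a1* had 45 UMIs against 0.761, but in 4 of 14 fragments only.

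Across locations 15 of 18 tested chains differed in basal-like cells (20.6% of all genes did), 6 of 12 in ER+ luminal-like cells (5.51% of all genes) and 6 of 8 in ER- luminal-like cells (4.1% of all genes). The type I chains, which were not above expectation over all fragments in any of these classes, were highest in nipple in each. In nipple alone, *Col1a2* had 843 UMIs against 533 in basal-like, 781 against 551 in ER+ and 451 against 257 in ER- luminal-like cells. *Col1a1* there had 635 against 550, 554 against 569 and 337 against 265. In duct and TEB the ratios of *Col1a2* were 0.287 to 1.12, and the excess was not tested by location. *Col1a1* in basal-like cells was at 316 ± 91.9 CPM (SD) over the 4 nipple fragments, 33.7 ± 17.0 over the 6 duct fragments and 42.4 ± 29.1 over the 6 TEB fragments, and it was at 266, 31 and 34.9 CPM in ER+ and at 269, 32.3 and 32.1 CPM in ER- luminal-like cells. *Col1a2*, *Col3a1*, *Col6a1* and *Col6a2* were among the called chains in all 3 classes as well. Fibroblast-like cells numbered 116 in the 4 nipple, 38 in the 6 duct and 98 in the 6 TEB fragments, and their part in these differences was not tested.

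Chains above expectation in basal-like cells were distributed in several ways. *Col7a1* was highest in duct, with 280 ± 78.0 CPM (SD) over the 6 duct fragments against 94.5 ± 18.4 over the 4 nipple and 98.0 ± 40.3 over the 6 TEB fragments (adjusted p across locations 1.3e-05, edgeR). The 6 duct fragments had 203 to 361 CPM, above every nipple (73.6 to 116) and TEB fragment (70.3 to 176). *Col17a1* was at 376 ± 36.5 CPM (SD) over the 4 nipple fragments, 418 ± 102 over the 6 duct fragments and 222 ± 70.4 over the 6 TEB fragments (adjusted p across locations 0.0024, edgeR), and every nipple fragment lay above every TEB fragment. *Col18a1* had 228 ± 52 CPM (SD) over the 4 nipple fragments, 482 ± 77.5 over the 6 duct fragments and 485 ± 62.3 over the 6 TEB fragments (adjusted p across locations 8.4e-05, edgeR), with the highest nipple fragment (282) below the lowest of the others (388).

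*Col12a1* was at 114 ± 55.3 CPM in nipple, 116 ± 19.3 in duct and 11 ± 11.4 in TEB (SD, n = 4, 6 and 6; adjusted p across locations 3.6e-06, edgeR). *Col14a1* (479, 521 and 241 CPM), *Col16a1* (335, 279 and 211 CPM) and *Col5a2* (108, 147 and 49.2 CPM) were lowest in TEB too. *Col6a1* was above expectation only without *Serpinf1* and *Fbln1* among the markers. It was at 367 ± 127 CPM in nipple, 119 ± 31.5 in duct and 17.1 ± 10.7 in TEB (SD, n = 4, 6 and 6, adjusted p across locations 1.7e-10, edgeR).

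Of the cartilage-type chains, *Col11a1*, *Col9a1* and *Col2a1* were lowest in nipple and highest in TEB in basal-like cells, and *Col9a2* and *Col9a3* were not. *Col11a1* was at 0.498 ± 0.995 CPM in nipple, 88.4 ± 40.5 in duct and 154 ± 47.0 in TEB (SD, n = 4, 6 and 6; adjusted p across locations 9.6e-10, edgeR), with 1 UMI in all nipple fragments together. *Col9a1* and *Col2a1* had no UMI in nipple. *Col9a1* was at 9.15 to 54.2 CPM in duct and 9.36 to 181 in TEB, where TEB fragments 42 and 43 (181 and 173 CPM) stood above the other 4 (at most 70.3). *Col2a1* was at 0 to 10.1 CPM in duct and 16.0 to 54.3 in TEB, without overlap. The other type IX chains did not pass across locations, *Col9a2* with 120, 238 and 149 CPM (adjusted p = 0.0647, edgeR) and *Col9a3* with 198, 161 and 234 CPM (adjusted p = 0.308, edgeR). Nipple and duct basal-like cells fell in 1 cluster (96 nipple, 115 duct and 1 TEB cells) and TEB ones in another (1 nipple and 81 TEB cells), so that location and cluster cannot be told apart there.

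In ER+ luminal-like cells *Col6a3* was at 151 ± 58.2 CPM (SD) over the 4 nipple fragments, 106 ± 34.8 over the 6 duct fragments and 32 ± 21.3 over the 6 TEB fragments (adjusted p across locations 0.0005, edgeR). Every nipple and duct fragment (71.5 to 208 CPM) lay above every TEB fragment (8.62 to 62.5). *Col8a1* was at 0 to 19.2 CPM in nipple, 30.8 to 54.9 in duct and 7.85 to 78.9 in TEB, and it did not pass across locations (adjusted p = 0.136, edgeR). In ER- luminal-like cells *Col9a1* was counted in 1 nipple fragment only (12.7 CPM), at 13.1 to 130 CPM in duct and at 32.7 to 128 CPM in TEB (adjusted p across locations 0.0329, edgeR). *Col6a1* there was at 86.6 to 260 CPM in nipple against 3.17 to 19.2 in duct and 9.14 to 21.8 in TEB (adjusted p across locations 2e-06, edgeR). Over all fragments *Col6a1* was not above expectation in this class (adjusted p = 0.399, exact sign-flip permutation test). It had 218 UMIs against 79.8 in nipple, 23 against 29.3 in duct and 30 against 21.6 in TEB.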

How the data were processed

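Cells outside the limits stated in the methods were removed (kept: at most 5% ERCC spike-in, 5000 to 120000 UMIs, 200 to 6000 genes). The authors trimmed reads with Trim Galore, checked them with FastQC, extracted UMIs with UMI-tools, aligned to mm10 with STAR keeping unique alignments, assigned reads with featureCounts and deposited raw UMI counts per gene and cell (17788 rows, 67 of them spike-ins). Tool versions are not given in the sources used here. All 16 fragments were used and the deposited columns without a sample numbered 0.

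Clusters were made in Seurat 5.3.0 (2000 variable genes without collagens, 14 principal components, resolution 0.5). Each took the class whose markers were highest. A mast cell-like cluster (71 cells) and a pericyte-like cluster (19 cells) entered no test, and no doublet caller was run. For each class, raw counts of fragments holding 5 or more of its cells were summed and given to edgeR 4.0.16 in R 4.3.3 (TMM, filterByExpr, robust quasi-likelihood, all locations in 1 fit, no block), with Benjamini-Hochberg adjustment over all genes and a threshold of 0.05. Expected UMIs are the median over cells of fibroblast and myeloid marker CPM relative to the fragment's pool, times the pool's rate and the class total. For genes with at least 20 observed or expected UMIs, the mean over fragments of log2((observed + 0.5)/(expected + 0.5)) was tested by an exact two-sided sign-flip permutation, adjusted over all these genes. Levels are CPM after TMM except in clusters, where they are unadjusted.

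The chains and lists were chosen with earlier results of these data known. Named chains had a mean of at least 50 CPM in 1 location of fibroblast-like cells, a call there or an excess in an epithelial class, and 4 genes with the smallest p were named per pathway list. Symbols were looked up in GENCODE M21 (GRCm38) for positions and coding sequences. Scripts were tested on simulated data. Alternatives were DESeq2 1.42.0, RLE size factors, no filter, other minimum cell numbers, thinning to 5000 UMIs, collagens among the clustering genes, classes from marker lists, other estimates of the share from other wells, and leaving out each fragment.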

Additional observations from a re-analysis of the deposited data

Results flagged for a closer look

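Of 117 groups of 4 to 6 fragments, 18 held a fragment far from the others of its location, where chance gives about 1 in 20. In 5 of the 18 the others were all at 0, which meets this criterion by construction, so the count is not read against chance. In fibroblast-like cells these were *Col12a1* in duct fragment 61 (491 CPM, next 73.8), *Col28a1* in duct fragment 32 (311, next 36.2) and in nipple fragment 24 (4.47, others 0), *Col7a1* in TEB fragment 34 (34.8, next 8.0) and nipple fragment 21 for *Col13a1* (86.8, next 45.4), *Col15a1* (798, next 585) and *Col6a1* (3076, next 2483). In basal-like cells they were *Col7a1* in TEB fragment 32 (176, next 107), *Col9a1* in duct fragment 32 (54.2, next 20.2), *Col25a1* in duct fragment 61 (2.29, next 0) and *Col11a1* in nipple fragment 21 (1.99, others 0). In ER+ luminal-like cells *Col16a1* was low in duct fragment 31 (8.27, next 16.4). In ER- luminal-like cells they were *Col3a1* in duct fragment 51 (142, next 65.7), *Col9a1* in duct fragment 62 (130, next 53.8) and nipple fragment 24 (12.7, others 0), *Col9a2* in TEB fragment 32 (108, next 30.1) and nipple fragment 24 (3.17, others 0) and *Col9a3* in TEB fragment 42 (59.1, next 38.3).

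For chains above expectation in an epithelial class, the nipple-minus-TEB difference in that class was compared with the one in fibroblast-like cells of the same fragments, on the log2(CPM + 5) scale, a test chosen after the data were seen. It was an exact two-sided permutation of locations over fragments, and 9 of 11 comparisons passed after adjustment. The smallest p of this permutation test is 0.0159 with 4 against 5 fragments and 0.0286 with 4 against 4. Equal p-values therefore do not rank the differences by size. *Col7a1* differed most: nipple stood 4.46 above TEB in fibroblast-like and 0.04 above it in basal-like cells. The basal-like difference minus that of fibroblast-like cells was −4.42 (adjusted p = 0.0291, exact permutation). This value was 2.63 for *Col12a1*, 0.78 for *Col5a2*, −1.49 for *Col16a1* and −1.67 for *Col18a1* (adjusted p = 0.0291 for each, exact permutation). In ER+ luminal-like cells the corresponding values were 1.92 for *Col6a3* (adjusted p = 0.0291, exact permutation) and −2.16 for *Col16a1* (adjusted p = 0.0388, exact permutation). In ER- luminal-like cells they were −2.54 for *Col12a1* and 2.02 for *Col3a1* (adjusted p = 0.0388 for both, exact permutation), and *Col3a1* there is 1 of the chains whose excess over other wells was lost with other markers. *Col14a1* in basal-like cells (0.48, adjusted p = 0.222, exact permutation) and *Col16a1* in ER- luminal-like cells (−2.68, adjusted p = 0.0629, exact permutation) did not pass. Nothing was subtracted from these levels for RNA of other wells, and its part in them was not tested. ER- luminal-like *Col12a1* had 5 UMIs against 5.08 expected in nipple and 56 against 1.59 in TEB. ER+ luminal-like *Col16a1* had 37 against 35.6 and 100 against 36.9. Both nipple values lay close to the level expected from other wells.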

How the results depend on the processing

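In nipple against TEB fibroblast-like cells, the 6 calls became 10 with fragments of at least 10 cells and 2 in the shared cluster alone, where *Col1a1* (−0.12), *Col3a1* (−0.34), *Col6a1* (−0.57) and *Col6a2* (−0.61) changed sign, and 4 to 7 without single fragments. In nipple against duct, the 0 calls became 1 with no filter or with at least 10 cells, 2 by DESeq2, 2 without duct fragment 61 and 1 without TEB fragment 42 (0 to 2 over all fragments left out). In duct against TEB, the 2 calls became 4 with at least 10 cells and 0 with classes from marker lists, with only the locations compared, in the shared cluster, or with a replicate block on the label number (0 calls, duct and TEB fragments with at least 3 cells), and 0 to 3 without single fragments. Across locations, the 6 fibroblast-like calls became 10 with fragments of at least 10 cells, 2 in the shared cluster and 4 to 7 without single fragments. Thinning each cell to 5000 UMIs left 7 of the 15 basal-like and 2 of the 6 ER- calls across locations. Without single fragments the calls across locations were 13 to 16 in basal-like, 6 to 6 in ER+ and 5 to 6 in ER- cells, and the chains above expectation 12 to 13, 2 to 3 and 7 to 8. The cause was not tested, beyond fewer counts entering after thinning. The counts under each alternative come without the share of all genes called under it. They show how far the calls held and are not read as results about collagens. Duct and TEB fragments share the label numbers 31 and 32, and the deviations of same-numbered fragments correlated at 0.0252 and 0.0627, so the block was taken to mark a shared number and not a pairing. Fibroblast-like sums of duct rest on 5 to 11 cells each. UMI counts cover captured molecules only, and levels near 1 UMI carry no order.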

Other observations

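The pericyte-like cluster (19 cells from 8 fragments, 284534 UMIs, led by *Avpr1a* and *Rgs5*) stood outside every comparison. Summed over its cells, *Col18a1* was at 316 CPM, against 312 in all fibroblast-like cells summed the same way, whereas *Col3a1* was at 1012 against 7215 CPM, *Col1a1* at 429 against 6717 and *Col6a1* at 306 against 1999. *Col7a1* had 0 UMIs in these cells, which with a floor of 3 UMIs allows at most 10.5 CPM by counting alone. The cluster has no replicate test.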
